A study of Mus musculus with 6 samples.

Results

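The enzymes that burn glucose, divert it into the pentose phosphate pathway or store it as glycogen were examined across the blood neutrophils of tumour-bearing mice. The 36 genes were chosen by name: 24 of glucose transport, glycolysis and lactate export, 7 of the pentose phosphate pathway and 5 of glycogen metabolism, out of 35815 gene symbols in the data. RNA sequencing had been carried out on Ly6G+ cells, Ly6G being a surface protein of mouse neutrophils, sorted from red-cell-lysed blood; 3 libraries came from cells with high and 3 from cells with low surface Ly6C, here called Ly6C-high and Ly6C-low. All animals were wild-type BALB/C mice, in which 4T1 cells, a mouse mammary carcinoma line, had been implanted orthotopically 4 weeks earlier. No mice without tumours were analysed here, so every value below describes neutrophils of tumour-bearing animals. Whether the libraries of a group stem from different animals is not stated in the labels, and the p-values below measure the spread between libraries, which may be technical. In bulk libraries fewer cells of a type and less RNA per cell cannot be told apart.

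Neutrophils hold few mitochondria and are known to make most of their ATP by glycolysis, in which glucose is phosphorylated, split and oxidised to pyruvate, and the pyruvate is reduced to lactate and exported. The pentose phosphate pathway branches off at glucose-6-phosphate and yields NADPH, the electron donor of the oxidative burst, and pentoses for nucleotides. Glycogen, a branched store of glucose, is built up and broken down within neutrophils and lets them act where glucose is scarce.

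Estimated counts per library lay between 17192372 and 20973623. The summed transcripts of Ly6c1 and Ly6c2 stood at 187 ± 30.5 CPM (counts scaled to the library's size with TMM factors, mean ± SD, n = 3) in Ly6C-high and at 24.3 ± 6.96 CPM (n = 3) in Ly6C-low libraries, in the direction of the labels. All 11 neutrophil markers examined were detected, and their summed level was 127660 to 136024 CPM in Ly6C-high and 105450 to 120687 CPM in Ly6C-low libraries. These sums did not overlap, and the lowest was that of Ly6C-low replicate 3. Most of each sum was S100a8 and S100a9, and some single markers, such as Csf3r and Camp, overlapped between the groups. On the first principal component, with 36.8% of the variance, Ly6C-low replicate 3 lay at 32.5 and the other 5 libraries between -15.6 and 2.67. For the members and named genes the log2 fold change without it is therefore also given below, shortened to "without low 3" inside parentheses. The fit across all genes with edgeR's quasi-likelihood test called 4 of 11399 genes between the groups at a Benjamini-Hochberg adjusted p of 0.05, and 20 without that library.

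Transcripts of these pathways were abundant. Levels of different genes are compared here in TPM, in which counts are divided by transcript length. The 36 genes together held between 1.05% and 1.36% of all TPM in a library. A mean over the 6 libraries of at least 100 TPM was reached by 20 of the 36, against 2.81% of all gene symbols, and a mean of at least 1000 TPM by 5. Those 5 were Pkm (1338 TPM), which encodes the pyruvate kinase that closes glycolysis, Gapdh (1279 TPM), Taldo1 (1126 TPM), Aldoa (1027 TPM) and Pygl (1008 TPM), and among all genes Pkm ranked 69 by mean TPM. The summed glycolysis genes reached 7849 ± 483 TPM in Ly6C-high and 7577 ± 917 TPM in Ly6C-low libraries (SD, n = 3 each). The pentose phosphate genes summed to 3692 ± 202 TPM and 3411 ± 407 TPM. The glycogen genes summed to 1205 ± 57.0 TPM and 1118 ± 93.2 TPM. In each of the 3 pathways the ranges of the groups overlapped. These levels, ranks and sums count Gapdh and Eno1 by their own identifiers alone. With the loci that share their sequence added, they came to means of 5086 and 900 TPM, as described below.

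**Figure D1:**
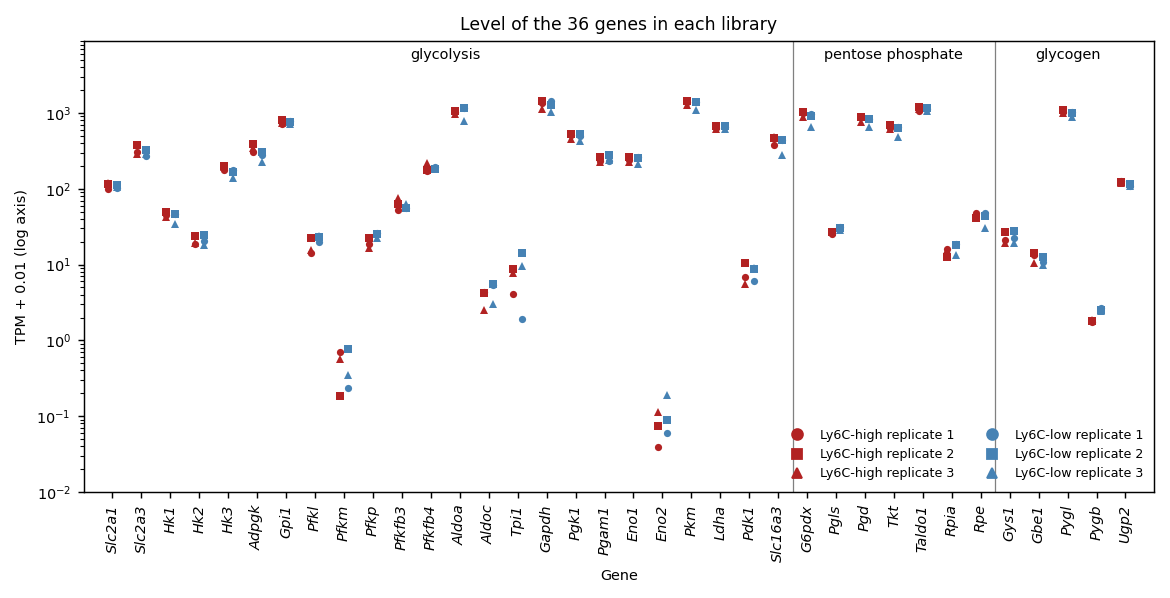
Level of each of the 36 genes in TPM, with 0.01 added, on a log axis, for the 6 libraries. Each marker is 1 library, red for Ly6C-high and blue for Ly6C-low, with replicates 1, 2 and 3 as circle, square and triangle. Levels run from below 1 TPM for Pfkm and Eno2 to above 1000 TPM for Pkm and Gapdh, and for most genes the 6 markers lie close together.

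Between Ly6C-high and Ly6C-low neutrophils, 0 of the 35 members that could be tested passed an adjusted p of 0.05 with edgeR, where 0.0351% of all genes tested passed. DESeq2's Wald test called 1 member, Adpgk, with an adjusted p of 0.0225, and limma voom called 0. With no filter on low counts edgeR called 2, Adpgk (adjusted p = 0.00989) and Hk3 (adjusted p = 0.0482), among 433 genes in all. At an unadjusted p under 0.05 the edgeR test gave 5 members, 3 higher and 2 lower in Ly6C-high cells, where 14.2% of all genes lay under that level (6.89% higher and 7.36% lower). The libraries of the groups did not overlap in CPM for 3 members that lay higher (Adpgk, Hk3 and Ugp2) and 1 that lay lower (Pygb) in Ly6C-high cells, where 10.3% and 10.9% of all genes did so (21.1% in either direction). Both counts of members are near or under the background. The log2 fold change of Ly6C-high over Ly6C-low was above 0 for 26 of the 35 members (49.2% of all genes) and below 0 for 9 (50.8% of all genes), with a median of 0.10 for the members and -0.005 for all genes. The medians were 0.09 for 23 glycolysis genes, 0.21 for 7 pentose phosphate genes and 0.21 for 5 glycogen genes.

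The members' median moved with 1 library and with the scaling. Of the 35 members, 27 were lowest in Ly6C-low replicate 3, and 19 were highest in Ly6C-high replicate 2. The same was not counted over all genes, and Ly6C-low replicate 3 also stood apart on the first principal component of all genes tested. Without Ly6C-low replicate 3 the members' median was 0.03 and 21 members lay above 0, with medians of 0.02, 0.08 and 0.11 for glycolysis, pentose phosphate and glycogen genes. Scaled by library size alone in place of TMM, the median of all genes moved to -0.11 and that of the members to 0.0004, with 18 above 0, so the members lay about as far above the median of all genes as before. For 25 of the 35 members the 95% interval of the difference held no change beyond 1.5-fold, up or down, against 53.4% of all genes and 88.2% of genes with a mean of at least 100 CPM. For most members a larger difference than 1.5-fold is thus outside the interval.

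**Figure D2:**
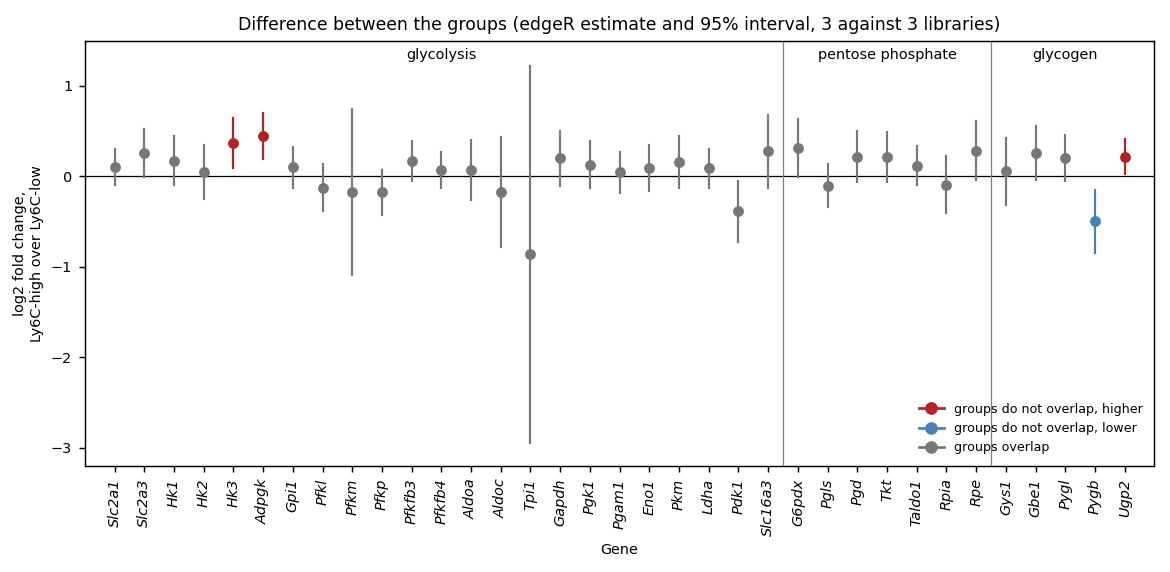
Log2 fold change of Ly6C-high over Ly6C-low for the 35 members tested, with points for the edgeR estimate and bars for its 95% interval (3 against 3 libraries). Red and blue mark the 4 genes whose libraries do not overlap between the groups. Most points lie between 0 and 0.32, Adpgk is the highest at 0.45, and Tpi1 has the widest interval.

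**Figure D3:**
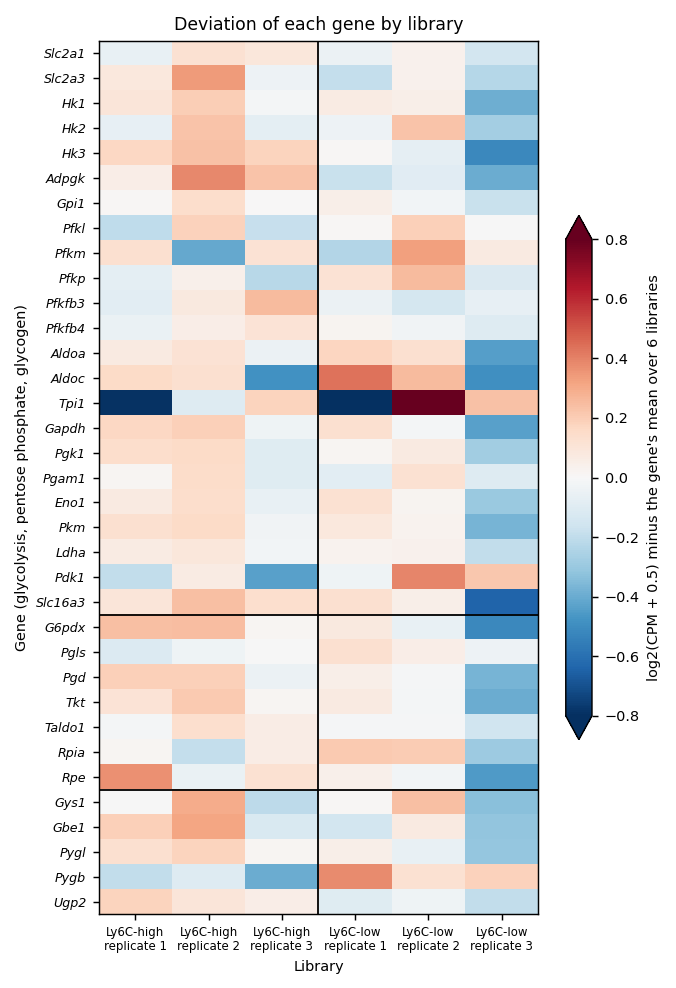
Heat map of each tested member (rows, in pathway order) in each library (columns), as log2(CPM + 0.5) minus the gene's own mean over the 6 libraries. Colours end at -0.8 and 0.8, and values beyond are shown in the end colours. The column of Ly6C-low replicate 3 is blue for most genes: 27 of 35 members were lowest there. The same was not counted over all genes.

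Glucose enters through facilitative transporters. The low-Km transporter Slc2a3 (GLUT3) held 73.8% of the summed TPM of Slc2a3 and Slc2a1 (GLUT1), with 71.1% to 76.4% over the libraries. In CPM, and in the order of replicates 1, 2 and 3 that is kept below, Slc2a3 stood at 1130, 1348 and 1035 in Ly6C-high against 935, 1093 and 911 in Ly6C-low libraries. Its groups overlapped, with a log2 fold change of 0.26 (SE 0.12, adjusted p = 0.368; 0.20 without low 3). Slc2a1 lay at 225, 255 and 250 CPM against 227, 240 and 212 CPM, with overlapping groups and a log2 fold change of 0.10 (SE 0.09, adjusted p = 0.643; 0.05 without low 3). The Slc2a3 share itself, 74.5 ± 2.93% against 73.2 ± 1.00% (SD, n = 3 each), had an exact two-sided permutation p of 0.5.

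The first step inside the cell is the phosphorylation of glucose, which traps it there. Of its 4 genes 2 did not overlap between the groups, where 21.1% of all genes did so, and 4 genes are too few to set against that share. Hexokinases use ATP to phosphorylate glucose, whereas Adpgk encodes an enzyme of the endoplasmic reticulum that uses ADP. Adpgk stood at 787, 987 and 888 CPM in Ly6C-high against 668, 712 and 574 CPM in Ly6C-low libraries. Every Ly6C-high library lay above every Ly6C-low library. The log2 fold change was 0.45 (SE 0.12, 95% interval 0.19 to 0.70, adjusted p = 0.191), and its p was the smallest of the 35 members. Without Ly6C-low replicate 3 it was 0.36 (adjusted p = 0.178).

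Hk3, the hexokinase of myeloid cells, stood at 476, 501 and 481 CPM against 427, 403 and 297 CPM. The groups did not overlap, and the lowest value was that of Ly6C-low replicate 3. Its log2 fold change was 0.37 (SE 0.13, adjusted p = 0.250), or 0.22 without Ly6C-low replicate 3. Hk1, the hexokinase of most tissues, lay at 149, 160 and 138 CPM against 146, 144 and 107 CPM, with overlapping groups (log2 fold change 0.17, SE 0.12; 0.04 without low 3). Hk2, an inducible hexokinase bound to mitochondria, lay at 98.1, 120 and 97.3 CPM against 99.5, 120 and 84.6 CPM, and its groups overlapped fully. Its log2 fold change of 0.05 turned to -0.07 without Ly6C-low replicate 3 and to -0.05 under library size alone.

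Among these 4 enzymes Adpgk held the greatest part of the transcripts, 55.9% of the summed TPM, and Hk3 32.2%, Hk1 8.09% and Hk2 3.83%. The Adpgk share was 56.4%, 58.7% and 57.4% in Ly6C-high and 53.5%, 55.7% and 53.7% in Ly6C-low libraries. These groups did not overlap and differed by 3.22 percentage points, with an exact two-sided permutation p of 0.1, the smallest that 3 against 3 libraries allow, and an adjusted p of 0.267 over the 8 shares compared. Within the 3 hexokinases the Hk3 share was 74.3 ± 1.16% against 71.7 ± 1.27% (SD, n = 3 each), again without overlap, with an exact permutation p of 0.1 and the same adjusted p. Without Ly6C-low replicate 3 these differences were 2.92 and 3.00 points. Both shares are ratios within a library and do not depend on the scaling between libraries.

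**Figure D4:**
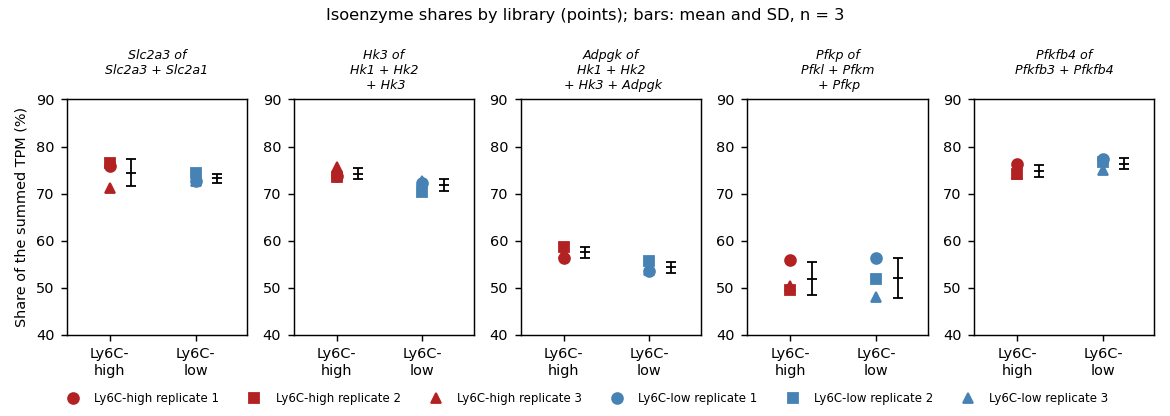
Share of the summed TPM of the isoenzymes of a step that is held by the gene named first, in percent, per library. Points are libraries and bars the mean and SD (n = 3); the vertical axis runs from 40% to 90%. The Adpgk and Hk3 shares of the Ly6C-high libraries lie above all Ly6C-low libraries, while those of Slc2a3, Pfkp and Pfkfb4 overlap.

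Part of the Adpgk signal sat on transcripts annotated as retaining an intron. They took 23.7% to 41.5% of its estimated counts, against 2.06% to 3.26% over all genes, and both highest values were in Ly6C-low replicate 3. Adpgk was not alone in this, since the share was 32.9% to 39.7% for Gapdh and 10.5% to 20.3% for Pfkp, and Tpi1 is described below. The 2 coding transcripts of Adpgk stood at 598, 717 and 605 CPM in Ly6C-high against 499, 531 and 334 CPM in Ly6C-low libraries. These groups did not overlap (ratio of means 1.41, exact permutation p = 0.1). The retained-intron transcripts, at 186, 268 and 281 CPM against 168, 178 and 238 CPM, overlapped (ratio 1.26, exact permutation p = 0.2). The ratios were 1.24 for the coding and 1.42 for the retained-intron transcripts without Ly6C-low replicate 3. Over all 36 members the retained-intron share was 2.91% to 4.71%, highest in Ly6C-low replicate 3 and second in Ly6C-high replicate 3. Its part in the differences was not tested.

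The next step, the isomerase Gpi1, was level between the groups: 1199, 1311 and 1190 CPM in Ly6C-high and 1230, 1169 and 1049 CPM in Ly6C-low libraries. Its groups overlapped and its log2 fold change was 0.10 (SE 0.10, 95% interval -0.12 to 0.33; 0.03 without low 3). Phosphofructokinase commits sugar to glycolysis, and its transcripts were sparse beside those of the steps around it. Pfkp (22.0 TPM) and Pfkl (19.9 TPM) shared the step with 52.0% and 46.9% of its TPM, and the muscle form Pfkm took 1.14%. Pfkp stood at 46.3, 50.4 and 42.0 CPM against 53.1, 58.5 and 45.2 CPM, with overlap (log2 fold change -0.18, SE 0.11, adjusted p = 0.510; -0.28 without low 3). Pfkl lay at 46.4, 60.9 and 47.1 CPM against 53.8, 61.2 and 53.4 CPM, with overlap (log2 fold change -0.13, SE 0.12; -0.17 without low 3). Pfkm had only 8 to 20 counts per library, and the 95% interval of its log2 fold change of -0.18, -1.09 to 0.74, allows differences in either direction (-0.18 without low 3).

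The PFKFB enzymes make and degrade fructose-2,6-bisphosphate, the strongest activator of phosphofructokinase. Pfkfb4 held 75.6% of the summed TPM of Pfkfb3 and Pfkfb4, or 72.7% with Pfkfb1 and Pfkfb2 included, and stood at 407, 438 and 455 CPM against 430, 414 and 393 CPM. Pfkfb3, whose product mainly makes the activator, stood at 185, 207 and 234 CPM against 189, 178 and 188 CPM. Both overlapped between the groups, with log2 fold changes of 0.07 (SE 0.09) for Pfkfb4 and 0.17 (SE 0.10, adjusted p = 0.462) for Pfkfb3, and of 0.03 and 0.18 without Ly6C-low replicate 3. The Pfkfb4 share of Pfkfb3 and Pfkfb4 was 74.8 ± 1.23% in Ly6C-high and 76.4 ± 1.19% in Ly6C-low libraries (SD, n = 3 each, exact permutation p = 0.2).

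In lower glycolysis, where the hexose is split and ATP is won, all genes overlapped between the groups. The aldolase Aldoa, which splits the hexose, stood at 1197, 1237 and 1100 CPM against 1281, 1246 and 838 CPM. Its log2 fold change of 0.07 (SE 0.15) turned to -0.11 without Ly6C-low replicate 3, and to -0.03 under library size alone. Aldoa held 99.6% of the summed TPM of Aldoa and Aldoc, and Aldoc, the form of brain, had 4.15 TPM and a log2 fold change of -0.17 (SE 0.27; -0.42 without low 3). Pgk1, which makes ATP as phosphoglycerate kinase, stood at 810, 816 and 686 CPM against 741, 770 and 604 CPM (log2 fold change 0.13, SE 0.12; 0.02 without low 3). The mutase Pgam1 lay at 358, 391.97 and 332 CPM against 334, 385 and 329 CPM (log2 fold change 0.05, SE 0.10). For Pgk1 and Pgam1 the intervals, -0.13 to 0.39 and -0.18 to 0.27, held 0. Pgam1 turned to -0.06 under library size alone and to -0.0007 without Ly6C-low replicate 3.

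Tpi1, the isomerase that interconverts the products of that split, had 46, 79 and 107 estimated counts in Ly6C-high and 38, 274 and 103 in Ly6C-low libraries. Its mean of 7.75 TPM was far under those of the enzymes on either side of it, Aldoa and Gapdh, which act in series with it. Ly6C-low replicate 2 alone was high, and the log2 fold change of -0.86 (SE 0.80) turned to 0.11 without that library (-1.03 without low 3). Between 9.15% and 68.1% of its counts sat on retained-intron transcripts. Its annotated processed copies, which shared at most 9.06% of its words of 31 bases on the same strand, held at most 0.3 counts each. The level of Tpi1 is reported as uncertain.

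Gapdh, the dehydrogenase that yields NADH, and the enolase Eno1 share long stretches of sequence with other loci, and the estimated counts were divided among them. Of the 31-base words of Gapdh 61.4% occur in Gm7336 and 49.3% in Gm13394, and of those of Eno1 52.3% in Eno1b and 39.5% in Gm4735. Gapdh lies on chromosome 6 (125161854 to 125166467, minus strand, build GRCm38), and its 999 coding bases recur without a difference in the processed pseudogene Gm7336 on chromosome 7 (51746647 to 51747878, plus strand). In Gm13394 on chromosome 2 (28933610 to 28934609, minus strand) 998 of the 999 are the same. The lines below give coding positions 316 to 376 of the GENCODE M21 transcripts, counted from 1 at the start codon, with the base at the position of that difference, 346, in capitals. They are shown because, within the coding sequence, Gapdh differs from Gm13394 in this base alone and from Gm7336 in none.

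Gapdh: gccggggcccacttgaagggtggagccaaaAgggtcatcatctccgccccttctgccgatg
Gm7336: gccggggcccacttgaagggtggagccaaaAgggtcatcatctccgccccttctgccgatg
Gm13394: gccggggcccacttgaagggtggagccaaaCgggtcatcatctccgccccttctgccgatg

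The mean estimated counts per library were 13929 for Gapdh, 27065 for Gm7336 and 31939 for Gm13394. Gapdh thus held 19.0% of the counts of a family made of itself and 71 copies (18.4% to 19.5% over the libraries), and the division among them is uncertain. For Eno1 the 3 values were 7332 for Eno1 itself, 10690 for Eno1b and 5255 for Gm4735, a processed copy on chromosome 2 that shares 1297 of the 1302 coding bases. Eno1 held 31.5% of that family, with 30.3% to 32.2% over the libraries. The levels of Gapdh and Eno1 in TPM are uncertain to that extent, and whether the copies are transcribed was not tested.

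**Figure D5:**
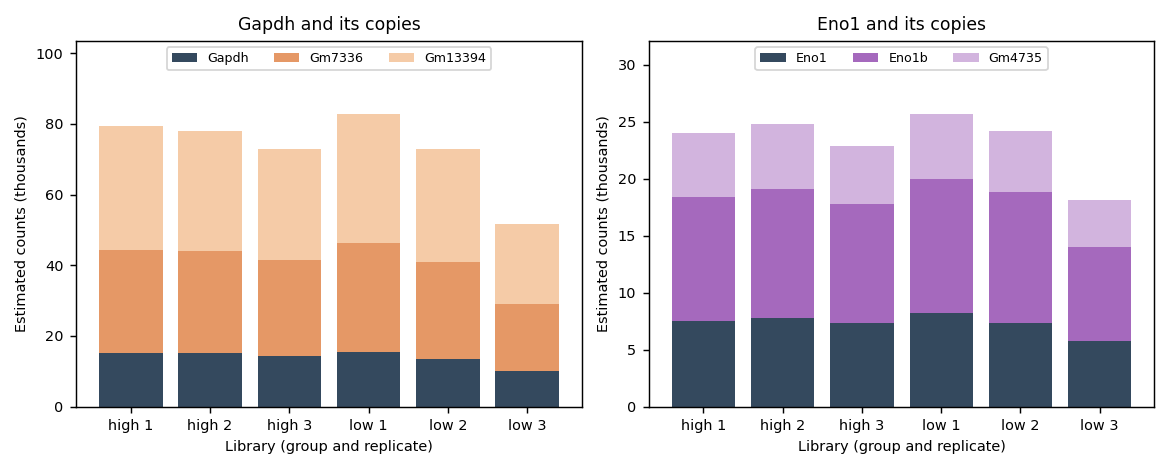
Estimated counts, divided by 1000 and not scaled for depth, of Gapdh (left) and Eno1 (right) and of the 2 loci with the most shared counts, stacked per library. In every library the greater part of the stack belongs to the copies, and the proportions are nearly the same in all 6 libraries; the stack is lowest in Ly6C-low replicate 3.

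Gapdh by its own identifier stood at 799, 813 and 694 CPM against 777, 705 and 527 CPM, with overlap and a log2 fold change of 0.20 (SE 0.14; 0.05 without low 3). With all copies added it was 0.16 (SE 0.15, adjusted p = 0.664). Eno1 lay at 395, 416 and 361 CPM against 410, 383 and 307 CPM, with a log2 fold change of 0.09 (SE 0.12) and of 0.08 (SE 0.13, adjusted p = 0.813) with its copies added. The comparison of the groups thus hardly depended on how the counts were divided among the loci. Without Ly6C-low replicate 3 Eno1 turned to -0.03, and under library size alone to -0.009. Eno2, the neuronal enolase, had 1 to 7 counts per library and was not tested.

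Pyruvate kinase is made in 2 forms from Pkm by a choice between neighbouring exons, and the M2 form prevails in proliferating and immune cells. The exons have the same length of 167 bases and lie on chromosome 9 (GRCm38, plus strand), the M1 exon at chr9:59675029-59675195 and the M2 exon at chr9:59675568-59675734. They are given here from the GENCODE M21 transcripts because the choice between them defines the forms, and the 64 positions at which they differ are in capitals.

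Pkm M1 exon: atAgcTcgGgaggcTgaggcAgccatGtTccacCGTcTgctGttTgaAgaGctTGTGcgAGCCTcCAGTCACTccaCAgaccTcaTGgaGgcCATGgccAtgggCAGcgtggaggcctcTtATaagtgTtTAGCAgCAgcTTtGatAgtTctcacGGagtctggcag
Pkm M2 exon: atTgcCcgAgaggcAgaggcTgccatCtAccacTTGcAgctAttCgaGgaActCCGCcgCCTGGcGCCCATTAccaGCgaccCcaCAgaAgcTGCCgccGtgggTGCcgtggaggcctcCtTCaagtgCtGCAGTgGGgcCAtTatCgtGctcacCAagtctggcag

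With 103 of 167 positions the same, and the differences spread along the exon, the forms can be told apart by reads in this exon. The shares were computed from the estimates for a whole annotated transcript of each form, so reads outside this exon can bear on them too. The M1 form took 4.05%, 4.01% and 3.88% of the TPM of both forms in Ly6C-high and 2.67%, 3.89% and 2.49% in Ly6C-low libraries. M2 thus made up the rest in every library, and the groups overlapped through Ly6C-low replicate 2, with means of 3.98 ± 0.09% and 3.02 ± 0.76% (SD, n = 3 each, exact permutation p = 0.2). The Ly6C-low mean was 3.28% without Ly6C-low replicate 3. By estimated counts in place of TPM the means were 3.29% in Ly6C-high and 2.49% in Ly6C-low libraries. The gene as a whole stood at 2910, 2960 and 2604 CPM against 2819, 2716 and 2055 CPM, with overlap (log2 fold change 0.16, SE 0.13, adjusted p = 0.617; 0.02 without low 3).

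The fate of pyruvate is set by lactate dehydrogenase, by the export of lactate and by the kinases that keep pyruvate out of the mitochondrion. Ldha stood at 828, 844 and 782 CPM against 807, 810 and 692 CPM, with overlap (log2 fold change 0.09, SE 0.10, 95% interval -0.13 to 0.31; 0.01 without low 3). Slc16a3 (MCT4), the lactate exporter of glycolytic cells, lay at 609, 673 and 626 CPM against 623, 588 and 365 CPM. Only Ly6C-low replicate 3 lay well under the rest, and the log2 fold change of 0.28 (SE 0.18, adjusted p = 0.526) was 0.07 without it. Pdk1, an inhibitor of pyruvate dehydrogenase, lay lower in Ly6C-high libraries, at 15.5, 18.6 and 13.0 CPM against 17.4, 23.5 and 20.7 CPM. Its groups overlapped, since Ly6C-high replicate 2 was above Ly6C-low replicate 1. The log2 fold change was -0.39 (SE 0.15, adjusted p = 0.299; -0.38 without low 3), and it was 0.05 when counts were rebuilt from length-scaled TPM.

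In the pentose phosphate pathway both dehydrogenases of the NADPH-yielding branch lay among the most abundant members. G6pdx, the first and rate-limiting dehydrogenase (910 TPM), stood at 2142, 2153 and 1832 CPM in Ly6C-high against 1916, 1746 and 1268 CPM in Ly6C-low libraries. Its groups overlapped in 1 pair of libraries, and the log2 fold change was 0.31 (SE 0.15, adjusted p = 0.367), or 0.15 without Ly6C-low replicate 3. Pgd, the second dehydrogenase (809 TPM), lay at 1690, 1689 and 1428 CPM against 1526, 1465 and 1142 CPM (log2 fold change 0.22, SE 0.13, adjusted p = 0.472), or 0.09 without that library. Pgls, the lactonase between them, had 28.0 TPM and lay at 16.5, 17.4 and 17.8 CPM against 19.5, 18.6 and 17.4 CPM (log2 fold change -0.10, SE 0.11; -0.15 without low 3). The 2 dehydrogenases and the lactonase thus differed in level far more than any of them differed between the groups.

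The sugar-exchanging branch returns pentoses to glycolysis. Taldo1 (transaldolase) stood at 1038, 1152 and 1089 CPM against 1042, 1041 and 936 CPM (log2 fold change 0.12, SE 0.10; 0.07 without low 3). Tkt (transketolase) lay at 1066, 1144 and 999 CPM against 1038, 978 and 751 CPM (log2 fold change 0.21, SE 0.13, adjusted p = 0.476), or 0.08 without Ly6C-low replicate 3. Both overlapped. The enzymes that interconvert the pentoses were at lower levels. Rpe, the epimerase, stood at 90.8, 67.7 and 76.6 CPM against 72.4, 69.3 and 51.1 CPM (log2 fold change 0.29, SE 0.15, adjusted p = 0.412; 0.14 without low 3), and Ly6C-high replicate 2 lay under 2 of the Ly6C-low libraries. Rpia, the isomerase, stood at 22.6, 19.5 and 23.4 CPM against 26.0, 25.8 and 18.2 CPM (log2 fold change -0.09, SE 0.14; -0.25 without low 3), with overlap.

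Glycogen breakdown was dominated by 1 gene. Pygl, the liver-type phosphorylase, which frees glucose-1-phosphate from glycogen, held 99.8% of the summed TPM of Pygl and Pygb, or 99.6% with the muscle form Pygm included. It stood at 2588, 2685 and 2401 CPM against 2451, 2276 and 1916 CPM, and the lowest Ly6C-high library lay just under the highest Ly6C-low one. Its log2 fold change was 0.21 (SE 0.12, adjusted p = 0.446), or 0.11 without Ly6C-low replicate 3. Pygb, the brain-type phosphorylase, was rare (2.15 TPM) and lay the other way, at 5.87, 6.29 and 5.04 CPM against 8.98, 7.43 and 7.79 CPM. All Ly6C-high libraries lay under all Ly6C-low libraries, with a log2 fold change of -0.49 (SE 0.16, adjusted p = 0.233), and of -0.53 without Ly6C-low replicate 3. The Pygl share of Pygl and Pygb was 99.83 ± 0.01% against 99.74 ± 0.01% (SD, n = 3 each), without overlap and with an exact permutation p of 0.1.

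Ugp2, which makes the UDP-glucose from which glycogen is built, stood at 232, 219 and 212 CPM against 192, 200 and 179 CPM. Its groups did not overlap, and each was tight. The log2 fold change was 0.22 (SE 0.09, adjusted p = 0.306), or 0.17 without Ly6C-low replicate 3. Gys1, the synthase that extends the chain, lay at 68.6, 84.3 and 59.3 CPM against 69.1, 81.0 and 54.2 CPM. Its log2 fold change of 0.05 (SE 0.17) turned to -0.09 without Ly6C-low replicate 3 and to -0.05 under library size alone. Gbe1, the branching enzyme, lay at 34.4, 37.6 and 27.6 CPM against 27.2, 31.7 and 24.1 CPM, with overlap (log2 fold change 0.26, SE 0.14, adjusted p = 0.409; 0.17 without low 3).

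Many glycolysis genes are known targets of the hypoxia factor HIF-1, whose binding sites often hold the letters ACGTG, the only form searched here. In RefSeq promoters of build GRCm38.p6, taken as the 250 bases before a start, the letters ACGTG on either strand were found for 15 of the 35 members with an entry (42.9%), against 18.5% of 27025 genes. A gene counted if any of its promoters held the letters, and the members had 50 promoters in all. The other genes were not matched to the members in number of promoters, base composition or level. Whether the members differ from other genes in these letters was not tested. The palindrome CACGTG, which other factors bind, counts as a match too. The promoters of 3 genes whose groups did not overlap are shown, since each of them holds a single match, in capitals: Adpgk (chr9:59291322-59291571, plus strand, 23 bases before the start), Hk3 (chr13:55021386-55021635, minus strand, 156 bases) and Pygb (chr2:150786546-150786795, plus strand, 163 bases). For Ugp2, the fourth such gene, 1 of 2 promoters holds the letters. In all 3 lines the match reads CACGT, which is ACGTG on the other strand.

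Adpgk: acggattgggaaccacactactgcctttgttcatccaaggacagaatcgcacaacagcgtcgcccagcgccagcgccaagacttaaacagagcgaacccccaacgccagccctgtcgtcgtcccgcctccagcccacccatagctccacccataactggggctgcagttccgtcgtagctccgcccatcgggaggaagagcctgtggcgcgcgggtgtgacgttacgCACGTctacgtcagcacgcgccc
Hk3: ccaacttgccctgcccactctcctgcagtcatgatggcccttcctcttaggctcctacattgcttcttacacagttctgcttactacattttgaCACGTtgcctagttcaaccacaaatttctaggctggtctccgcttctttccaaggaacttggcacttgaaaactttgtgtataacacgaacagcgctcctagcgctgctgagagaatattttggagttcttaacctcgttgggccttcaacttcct
Pygb: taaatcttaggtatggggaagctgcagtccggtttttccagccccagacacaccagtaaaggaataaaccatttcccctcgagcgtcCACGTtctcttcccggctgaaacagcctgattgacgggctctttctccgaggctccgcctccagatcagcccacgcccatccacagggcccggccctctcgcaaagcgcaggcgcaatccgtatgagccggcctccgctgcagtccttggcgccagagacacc

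Adpgk and Hk3 lay higher and Pygb lower in Ly6C-high cells. Whether the letters go with the direction of a difference was not tested. A match of these letters is a description and shows no binding. Hif1a itself had 82.1 TPM and a log2 fold change of 0.24 (adjusted p = 0.55; 0.06 without low 3).

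Another 100 genes around the 3 pathways, listed by name, gave the surroundings. Of these, 73 could be tested, 33 with a log2 fold change above 0 and 40 below, and 0 passed an adjusted p of 0.05 with edgeR. With Ly6C-low replicate 3 left out, 36 lay above and 37 below 0, 11 had changed sign and 0 passed. At an unadjusted p under 0.05 there were 6 higher and 7 lower among the 73, where 14.2% of all genes lay under that level. The smallest p was that of Gaa, the lysosomal glucosidase that degrades glycogen: 6.02, 6.66 and 6.11 CPM in Ly6C-high against 9.43, 9.16 and 9.17 CPM in Ly6C-low libraries. Its groups did not overlap (log2 fold change -0.56, SE 0.14, adjusted p = 0.191; -0.57 without low 3). Of the 18 further glycogen genes tested 10 lay above and 8 below 0.

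Around the pentose phosphate pathway, 4 of 8 tested genes lay above 0. Prps2, which turns ribose-5-phosphate into the precursor of nucleotides, lay at 2.16, 1.44 and 2.09 CPM against 3.34, 2.82 and 3.32 CPM, without overlap (log2 fold change -0.73, SE 0.24, adjusted p = 0.234; -0.70 without low 3). Idh1, a cytosolic source of NADPH, lay at 86.7, 86.7 and 79.3 CPM against 77.3, 74.1 and 62.3 CPM, without overlap (log2 fold change 0.24, SE 0.10, adjusted p = 0.318; 0.15 without low 3). Among the genes of pyruvate entry into the mitochondrion, 4 of 10 lay above 0. Dlat, a subunit of pyruvate dehydrogenase, lay at 12.2, 11.9 and 11.5 CPM against 14.4, 13.8 and 14.8 CPM (log2 fold change -0.27, adjusted p = 0.322; -0.25 without low 3), and Pdk3, a kinase that inhibits the complex, had a log2 fold change of 0.22 (adjusted p = 0.323; 0.14 without low 3). Neither gene overlapped between the groups.

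The genes that release free glucose from glucose-6-phosphate were rare, and both that were tested lay below 0. Slc37a4, the transporter that carries glucose-6-phosphate into the endoplasmic reticulum and whose loss in humans causes neutropenia, lay at 6.02, 5.86 and 4.79 CPM against 7.28, 7.48 and 7.52 CPM. Its groups did not overlap (log2 fold change -0.42, SE 0.16, adjusted p = 0.279; -0.42 without low 3). G6pc3, the phosphatase it serves in these cells, overlapped at 0.929 to 1.6 CPM (log2 fold change -0.22, SE 0.32; -0.0009 without low 3), and G6pc was listed at 0. Of 22 genes tested in the list of hypoxia factors and targets, 10 lay above and 12 below 0. That list also held Mlxip, Mlxipl, Txnip and Arrdc4, which are genes of glucose sensing. Bnip3, a hypoxia-induced mitophagy receptor, lay at 102, 95.1 and 94.7 CPM against 104, 133 and 127 CPM, without overlap (log2 fold change -0.32, SE 0.10, adjusted p = 0.234; -0.29 without low 3). Epas1, which encodes HIF-2α, lay at 1.51, 1.98 and 1.79 CPM against 3.07, 2.70 and 2.77 CPM (log2 fold change -0.69, SE 0.23, adjusted p = 0.238; -0.72 without low 3).

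The smaller lists held fewer tested genes, and none of their members had an unadjusted p under 0.05. Of 3 further transporters, Slc16a7 and Slc16a1, both monocarboxylate transporters, had log2 fold changes of 0.36 (SE 0.27; 0.17 without low 3) and -0.19 (SE 0.39; -0.41 without low 3) and stayed below 3 CPM in every library. Slc2a6, a transporter of the GLUT family, was the most abundant of that list at 83.2 TPM. Of 5 other isoenzymes, Pgam2, the muscle mutase, had a log2 fold change of -0.28 (SE 0.17) and Gapdhs, the sperm dehydrogenase, one of -1.04 (SE 0.62). These were -0.23 and 0.03 without Ly6C-low replicate 3. Of 4 genes of fructose bisphosphate control, Pfkfb1 and Fbp1, the gluconeogenic bisphosphatase, had log2 fold changes of 0.58 (SE 0.47) and -0.10 (SE 0.24), and of 0.34 and 0.21 without that library. Of the gluconeogenesis genes Pck2 alone could be tested, with a log2 fold change of -0.10 (SE 0.23; -0.05 without low 3).

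Summed markers of 3 other cell types, eosinophils, basophils and monocytes, did not overlap between the groups. The 7 eosinophil genes summed to 33.7 to 47.7 CPM in Ly6C-high and 59.9 to 64.2 CPM in Ly6C-low libraries. Their granule gene Epx was at 0 in 5 of the 6 libraries, and most of the sum was Siglecf (27.4 to 37.9 and 40.7 to 47.5 CPM). Ccr3 (5.43 to 8.40 and 12.2 to 13.6 CPM) and Alox15 (0.320 to 0.528 and 2.24 to 3.82 CPM) did not overlap either. The same held for Ear1 (0.051 to 0.163 and 0.900 to 2.59 CPM) and Prg2 (0 and 0.106 to 0.733 CPM), while Il5ra overlapped. The 6 basophil and mast cell genes summed to 2.38 to 4.25 CPM and 5.39 to 29.0 CPM, highest in Ly6C-low replicate 3. The 5 monocyte genes, nearly all of it Csf1r, summed to 353 to 358 CPM and 359 to 433 CPM. Of the others Ccr2 (10.3 to 11.7 and 4.45 to 8.67 CPM), Cx3cr1 (0.651 to 1.31 and 0.155 to 0.165 CPM) and Ms4a6c (1.64 to 2.00 and 0.680 to 1.15 CPM) lay the other way, without overlap. Red cell (247 to 903 and 585 to 885 CPM), platelet (9.45 to 18.7 and 14.0 to 19.4 CPM), B cell (2.53 to 4.79 and 1.99 to 3.83 CPM) and T and NK cell genes (39.5 to 62.6 and 33.1 to 45.1 CPM) overlapped between the groups. The T and NK cell sum was nearly all Cd3d (37.4 to 59.0 and 31.5 to 43.0 CPM). Of 4 epithelial genes that tumour cells would carry, Krt8 and Krt18 were at 0 in every library, and the sum of 7.64 to 15.9 and 9.11 to 20.6 CPM was nearly all Cdh1. The part of these cells in the values of rare genes such as Pygb was not tested.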

How the data were processed

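The 36 genes and all lists of other genes and markers were chosen with earlier results of these data known. The authors used kallisto, with GRCm39 as the build, per the submitters' processing notes. Its version, index and strand setting were not stated in any source used, so reads from antisense genes cannot be separated. Libraries were made from mRNA with a Kapa kit, per the labels' protocols. The deposited tables hold estimated counts and TPM for 117486 transcripts, per the file headers. Of these 99.04% matched a GENCODE M21 identifier with its version removed, and they held 99.747% to 99.767% of the estimated counts; both were summed by gene symbol (38 symbols stand for several identifiers), and the summed counts were rounded.

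The test was a robust quasi-likelihood fit in edgeR 4.0.16 (R 4.3.3) with filterByExpr, TMM and group as the only term, in all 6 libraries, with Benjamini-Hochberg adjustment over the 11399 genes kept and 95% intervals, and the biological coefficient of variation was 13.7%. The step was also run on simulated counts drawn from the means and dispersions of the same fit, with no library set apart. No result above rests on that run. Shares of TPM were compared by exact two-sided permutation tests. Genes named with values per library were the most abundant isoenzyme of each step, every member without overlap or with an unadjusted p under 0.05, and the 3 members of each pathway with the smallest p; the other members were added after their values were seen. Of each list of other genes the 2 with the smallest p were named, apart from a result that is not reported here; Hif1a, Slc2a6, G6pc and marker genes were chosen after their values were seen. Pairs of libraries differed by far more than sampling noise (chi-square per gene 13.0 to 62.0), so none was treated as a copy of another. Depth lay within a narrow range, and no molecular identifiers were used. Words of 31 bases were compared between transcripts to find copies, and a gene sharing at least 15% of a member's words on the same strand was added to it in an alternative chosen after seeing the data. Other alternatives were DESeq2 1.42.0, limma 3.58.1 voom, other scalings and filters, length-scaled TPM, protein-coding genes or transcripts alone, the replicate number as a block, and each library left out in turn. Coordinates are those of GRCm38, the build of the annotation used for names and sequences.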

Additional observations from a re-analysis of the deposited data

How the results depend on the processing

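Against 4 genes past the threshold, library size alone gave 8, no filter on low counts 433, DESeq2 129 and length-scaled TPM 2, and leaving out 1 library gave 2 to 20, the 20 without Ly6C-low replicate 3. Members past it numbered 2 with no filter (Adpgk, adjusted p = 0.00989, and Hk3, adjusted p = 0.0482), 1 with DESeq2 and 0 in each other setting run; the cause was not tested. The medians of the 3 pathways stayed above 0 in every setting but library size alone, where that of glycolysis was -0.00918. Leaving out 1 library they ranged from 0.02 to 0.15 for glycolysis, from 0.08 to 0.29 for the pentose phosphate pathway and from 0.11 to 0.25 for glycogen.

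The replicate number as a block gave 60 genes past the threshold and 0 members, of which Adpgk had the smallest adjusted p, 0.0659. Deviations of same-numbered libraries correlated at 0.28, -0.03 and 0.25 for numbers 1, 2 and 3, and those of unlike-numbered libraries at -0.33 to 0.09. The retained-intron share over all genes rose with the number in both groups. The labels do not say whether the number pairs the libraries, and this was not tested.

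Under library size alone the log2 fold change turned to -0.0505 for Hk2, -0.00237 for Gpi1, -0.0320 for Pfkfb4, -0.0265 for Aldoa, -0.0600 for Pgam1, -0.00918 for Eno1, -0.0157 for Ldha and -0.0456 for Gys1. With length-scaled TPM it turned to 0.21 for Pfkm and 0.0523 for Pdk1. Leaving out 1 library moved signs within these ranges: -0.0691 to 0.19 for Hk2, -0.39 to 0.0743 for Pfkm, -0.0201 to 0.12 for Pgam1, -0.0921 to 0.20 for Gys1, -0.42 to 0.0279 for Aldoc, -1.32 to 0.11 for Tpi1, -0.11 to 0.17 for Aldoa and -0.0266 to 0.18 for Eno1. The other 372 member values under other settings and 197 with 1 library left out kept their direction and their side of the threshold.

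Shares moved by more than 1 SD with estimated counts, which are not corrected for length, to 81.9% for Slc2a3, 63.6% for Hk3, 53.1% for Adpgk, 47.4% for Pfkp, 68.3% for Pfkfb4, 99.38% for Aldoa and 99.71% for Pygl. With protein-coding transcripts alone they were 82.1% for Slc2a3, 69.99% for Hk3, 54.0% for Adpgk and 63.98% for Pfkfb4. The difference between the groups ranged from -2.19 to 2.04 points for the Pfkp share and from -0.00172 to 0.0315 points for the Eno1 share when 1 library was left out. Genes with few counts, such as Pfkm, Tpi1 and Eno2, are limited by depth, and intervals cover the spread between libraries only.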
